A study of Homo sapiens and Mus musculus with 69 samples.

Results

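Transcription factors tied to neuroendocrine and other lineages of small cell lung cancer (SCLC) were followed through bulk RNA-Seq of 5 cell lines. The 9 genes NEUROD1, NEUROD4, INSM1, POU2F3, NKX2-1, FOXA2, PROX1, ISL1 and POU3F2 were taken by symbol from the 20516 genes of the human table, where all 9 have a row. Their mouse counterparts were taken from the 18501 genes of the table of the mouse line KP1, where 8 of 9 have a row and Pou3f2 has none.

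SCLC is a lung tumor whose cells mostly resemble the neuroendocrine cells of the airway. NEUROD1 and NEUROD4 are basic helix-loop-helix factors that drive neuronal and endocrine differentiation, and NEUROD1 names a subtype of SCLC. INSM1 is a zinc finger factor of endocrine progenitors that is used as a diagnostic marker of neuroendocrine tumors. NKX2-1, also called TTF-1, and FOXA2 are factors of lung and foregut endoderm, PROX1 and ISL1 are homeobox factors of neural and endocrine cells, and POU3F2, also called BRN2, is a POU factor of neural progenitors. POU2F3 is the master factor of tuft cells and marks an SCLC subtype that lacks neuroendocrine features. Notch signaling opposes the neuroendocrine state in the airway, in part through HES1, a repressor of basic helix-loop-helix genes, and REST, a repressor of neuronal genes outside neurons.

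The series comprised 69 libraries, 60 of human and 9 of mouse cells, in 23 groups of 3 libraries each. It was designed to switch on Notch signaling in SCLC cells and to read the change in gene expression. The labels do not say whether the 3 libraries of a group came from separate cultures, so that p values measure only the spread between these libraries. H82 and H524 are human lines that the study assigns to the NEUROD1 subtype, H69 and COR-L88 are human lines it does not, and KP1 is a line from a mouse tumor with mutant Rb1 and Trp53. H82 had 7 groups. They were parental cells, cells carrying a doxycycline-inducible vector for the intracellular domain of NOTCH1 (N1ICD), these vector cells with REST knockout (KO), and these vector cells labelled STING KO, each of the last 3 kept either without or with doxycycline (dox). H524 had 5 groups, parental cells plus N1ICD cells and cells whose vector induced REST, the last 2 each without or with dox. H69 had 3 groups, parental cells and N1ICD cells without or with dox. COR-L88 had 5 groups, namely cells treated with DMSO, with TAS1440 (an inhibitor of the histone demethylase LSD1, 100 nM) or with TAS1440 plus the γ-secretase inhibitor (GSI) BMS-708163 (2 μM), and STING KO cells with DMSO or TAS1440. KP1 had 3 groups, treated with DMSO, TAS1440 (100 nM) or TAS1440 plus the GSI DBZ (10 μM). A GSI blocks the cleavage that releases the intracellular domain of a Notch receptor from the membrane, and does not act on N1ICD made from a vector. Dox was used at 1 μg/mL for at least 28 days (56 days for H82 in the legends), COR-L88 was treated for 28 days and KP1 for more than 28 days. The vectors were lentiviral and the cells were selected with a drug. The legends show protein blots of several clones, each grown from a single cell, for the REST KO and STING KO lines, and the labels do not say whether the libraries of a KO group came from 1 clone or several, so that a difference between clones and the effect of a KO cannot be told apart. In the overexpression experiments the cells collected after dox were those that adhered to the plate, so that the change of adherence and the effect of dox cannot be told apart, and no group received dox without a vector.

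All values below are log2(RPKM + 1), where RPKM is reads per kilobase of transcript scaled to library size, and differences are differences of means on this scale, given with the standard error (SE) of the limma model. The scale is per length, so that levels can be compared between genes of 1 species, and it understates changes of genes near 0. Common reference genes were not constant on it, and GAPDH ranged from 10.79 to 14.36 over the human libraries. TBP was 6.60 to 8.44 in the human and Tbp 2.83 to 3.30 in the KP1 libraries, whereas EEF1A1 overlapped (9.69 to 13.39 and 10.85 to 11.19). Levels are therefore not compared between the human lines and KP1. A gene was tested in a line if 3 or more of the line's libraries had it at 1 or above. A difference was called when its Benjamini-Hochberg adjusted p was below 0.05 and its size was 1 or more in either direction, and rose and fell are used only for such differences. Untreated means parental cells, or cells with DMSO in COR-L88 and KP1. Bulk RNA cannot tell fewer cells that express a gene from less RNA of that gene per cell.

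From the steps between the lowest values, the human libraries ranged from 0.698 to 1.52 and the KP1 libraries from 0.872 to 1.07 times the median size of their table, and the absolute depth is unknown. Across H82, H524 and H69, NOTCH1 was 0.38 to 2.15 in N1ICD cells without dox and 4.26 to 10.74 with dox, and REST in the H524 cells with the REST vector was 5.05, 5.03 and 4.90 without and 6.87, 10.72 and 9.43 with dox. In H82 with dox, REST was 6.48, 6.13 and 6.33 in N1ICD cells and lower, at 4.95, 4.95 and 5.89, with REST KO. STING1 (TMEM173 in the table) was 1.07, 1.17 and 1.10 in these N1ICD cells and not lower, at 1.27, 1.53 and 2.04, in the H82 libraries labelled STING KO, whereas in COR-L88 with TAS1440 it was 2.54, 2.04 and 2.03 in intact and 1.16, 1.09 and 0.96 in STING KO cells. Transcript level does not show whether a CRISPR edit removed the protein. Of 7 neuroendocrine markers (SYP, CHGA, NCAM1, UCHL1, DDC, SCG3 and BEX1), none was listed at 0 throughout any untreated group. Their summed level as log2(RPKM + 1) was 11.62 to 11.84 in H82, 11.66 to 12.22 in H524, 11.98 to 12.13 in H69 and 11.45 to 11.72 in COR-L88. In KP1, which was normalized separately, it was 7.48 to 8.04. Of the markers of other cells, COL1A1 of mesenchymal cells and PTPRC of leukocytes were in the human table. Without dox, their summed level in N1ICD cells was 0.34 to 3.57 in H82, 0.62 to 1.29 in H524 and 0.94 to 1.29 in H69. With dox it was 6.27 to 7.06, 5.19 to 5.40 and 10.97 to 11.09 in the same order. The sum does not show which of them rose, and the part of such markers in the dox results was not tested. The study reports epithelial-mesenchymal transition with N1ICD in these lines and with TAS1440 in COR-L88 and KP1. A higher sum therefore does not by itself show other cells. Of 6 markers of cells without neuroendocrine features, 5 were called higher with dox in N1ICD cells of each line, and 1 lower in H82.

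On GRCh37, the build of the human files, the genes lie as follows in the GENCODE annotation. NEUROD1 is on chromosome 2, 182533022 to 182545554, on the minus strand. NEUROD4 is on chromosome 12, 55413758 to 55423801, INSM1 on chromosome 20, 20348748 to 20351593, POU2F3 on chromosome 11, 120107349 to 120190654, PROX1 on chromosome 1, 214156524 to 214214853, ISL1 on chromosome 5, 50679282 to 50690564 and POU3F2 on chromosome 6, 99282450 to 99287334, all on the plus strand. NKX2-1 is on chromosome 14, 36985597 to 36990354, and FOXA2 on chromosome 20, 22561636 to 22566093, both on the minus strand. INSM1 and POU3F2 have a single exon. Most of NEUROD1 lies within the span annotated for CERKL on the same strand, and NKX2-1 lies within that of SFTA3 on the same strand, with NKX2-1-AS1 and an unnamed noncoding RNA opposite to it. PROX1 is overlapped by PROX1-AS1 and POU2F3 by an unnamed noncoding RNA, both on the opposite strand. The library kit keeps the strand, but whether reads were counted by strand is not given in the sources used here, so that reads of these overlapping genes may be shared.

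NEUROD1, NEUROD4, INSM1 and POU3F2 all fell with N1ICD in H82, H524 and H69, and the start regions of the 3 of them that the sequence table holds are shown for that reason. The sequences are from RefSeq (GRCh38.p14), hold 250 bases before and 50 bases after the annotated start, and match GRCh37 without a difference at the positions given. Capitals mark CACNAG and CACGNG on either strand, which are the letters of the sites known for HES proteins.
NEUROD1, chr2:182545195-182545494, minus strand: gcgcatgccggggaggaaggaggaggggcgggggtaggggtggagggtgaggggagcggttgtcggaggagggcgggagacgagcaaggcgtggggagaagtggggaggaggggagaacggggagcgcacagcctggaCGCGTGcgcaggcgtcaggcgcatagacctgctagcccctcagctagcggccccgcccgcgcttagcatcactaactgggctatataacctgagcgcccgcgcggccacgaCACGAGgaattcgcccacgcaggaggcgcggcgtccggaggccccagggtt
NEUROD4, chr12:55413508-55413807, plus strand: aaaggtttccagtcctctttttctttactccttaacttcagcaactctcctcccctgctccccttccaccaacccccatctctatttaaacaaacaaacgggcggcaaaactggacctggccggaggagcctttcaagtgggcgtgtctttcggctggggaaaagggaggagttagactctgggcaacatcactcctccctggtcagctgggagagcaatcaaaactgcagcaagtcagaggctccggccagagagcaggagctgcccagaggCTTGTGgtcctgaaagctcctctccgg
POU3F2, chr6:99282200-99282499, plus strand: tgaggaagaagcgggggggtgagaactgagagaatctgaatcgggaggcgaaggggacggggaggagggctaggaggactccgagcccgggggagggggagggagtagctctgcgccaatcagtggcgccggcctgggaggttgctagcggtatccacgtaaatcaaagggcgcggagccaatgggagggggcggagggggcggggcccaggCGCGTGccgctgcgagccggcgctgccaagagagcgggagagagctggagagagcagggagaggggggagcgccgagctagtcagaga
The NEUROD1 window held CACGNG from base -112 and a match to both motifs from base -1 relative to the start, where 0 is the first base of the RefSeq transcript. The GENCODE span of NEUROD1 reaches 182545554, so that the whole NEUROD1 window lies within that span. The NEUROD4 window held CACNAG from base 23 and the POU3F2 window CACGNG from base -38. Of 35116 RefSeq start regions of this length, 38% held CACNAG and 30.5% held CACGNG. The share that held either motif was not counted, so that nothing is read from a match in each of these 3. The core letters of the site of the Notch effector RBPJ, TGGGAA on either strand, stood in 24% of the regions and in none of these 3. A match is a description of the letters and not a site. 

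NEUROD1 separated the untreated lines into a high and a low pair. It was 13.67, 13.20 and 13.07 in the 3 libraries of parental H82 and 14.27, 13.07 and 14.02 in parental H524, against 5.03, 4.77 and 3.32 in parental H69 and 5.75, 5.56 and 5.75 in COR-L88 with DMSO. H82 and H524 overlapped (-0.47 ± 0.60 (SE), adjusted p = 0.537), whereas H82 was above H69 by 8.94 ± 0.60 (SE), adjusted p = 2.26e-17, and above COR-L88 by 7.62 ± 0.60 (SE), adjusted p = 5.17e-15. H69 and COR-L88 missed the threshold (-1.31 ± 0.60 (SE), adjusted p = 0.059, 95% interval -2.53 to -0.10), and passed it without the first H69 library (-1.64, adjusted p = 0.0364) and with quantile normalization or median-centred libraries. NEUROD4 had another order, with 5.28 to 5.47 in H69, 4.07 to 5.09 in H524, 1.72 to 2.52 in H82 and 0 in every COR-L88 library. NEUROD4 was thus high in H69, a line with low NEUROD1. H524 and H69 differed in NEUROD4 by less than the size threshold (-0.79 ± 0.30 (SE), adjusted p = 0.0209), which was passed without the first H524 library (-1.04, adjusted p = 0.00574).

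INSM1 was highest in H69 at 8.73, 8.99 and 8.77, followed by H524 at 8.11, 7.76 and 8.09, COR-L88 at 6.71, 7.06 and 6.97 and H82 at 2.46, 3.58 and 3.67. H82 stood below COR-L88 (difference -3.68 ± 0.32 (SE), adjusted p = 1.13e-13). H524 was above COR-L88 (1.07 ± 0.32 (SE), adjusted p = 0.00367), a call lost without the first COR-L88 library (0.97, adjusted p = 0.0199), and neighbouring H69 and H524 did not reach the size threshold (-0.84, adjusted p = 0.0222). POU3F2 was 6.23 to 6.67 in the 9 libraries of H524, H69 and COR-L88, and lower in H82 at 3.96, 4.78 and 4.17 (-2.01 ± 0.30 (SE), adjusted p = 1.35e-07 against H69).

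The endodermal factors NKX2-1 and FOXA2 divided the lines differently from each other. NKX2-1 was listed at 0 in all 3 parental H82 libraries and reached 3.88, 3.96 and 3.98 in H69, 5.95, 6.73 and 5.70 in H524 and 6.91, 6.67 and 6.13 in COR-L88. H524 and COR-L88 overlapped in NKX2-1, and H69 was below COR-L88 (difference -2.64 ± 0.20 (SE), adjusted p = 1.91e-15). FOXA2 was at or near 0 in H82 (0.014, 0 and 0) and H524 (0, 0 and 0), and reached 4.87, 5.15 and 4.85 in H69 and 4.73, 5.02 and 4.72 in COR-L88, which overlapped. H524 thus had NKX2-1 at the level of COR-L88 with FOXA2 at 0. PROX1 was highest in COR-L88 at 4.25, 4.73 and 4.41, lower in H69 at 2.42, 2.60 and 2.45 and 0.62 to 1.51 in H82 and H524, which overlapped. ISL1 was highest in H69 at 5.57, 5.60 and 5.56, above COR-L88 at 2.47, 2.80 and 3.20 by 2.75 ± 0.27 (SE), adjusted p = 2.93e-12, and 0.14 to 1.41 in H82 and H524, which also overlapped. POU2F3 was low in every untreated line, at 0 to 0.80 over the 12 libraries.

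Counting all 9 genes, 8 were called between untreated H82 and H69 (against 41.2% of all genes tested), 8 between H82 and COR-L88 (36.4%), 6 between H524 and COR-L88 (31.3%), 5 between H524 and H69 (30.3%), 5 between H69 and COR-L88 (30.6%) and 4 between H82 and H524 (28.5%). The plot of untreated levels shows these orders gene by gene.

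**Figure D1:**
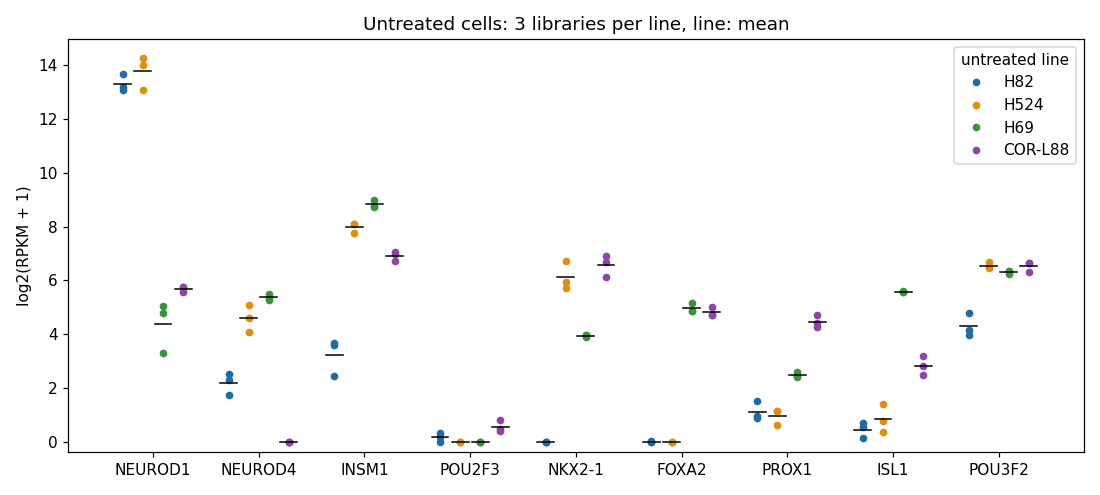
Levels of the 9 lineage factors in untreated cells as log2(RPKM + 1) on the vertical axis, with 1 point per library and a line at the mean of 3. NEUROD1 lies above 13 in H82 and H524 and below 6 in H69 and COR-L88, FOXA2 is at or near 0 in H82 and H524, and NKX2-1 is at 0 in H82 and above 5 in H524 and COR-L88.

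In H82, N1ICD was followed by a loss of NEUROD1, NEUROD4, INSM1 and POU3F2. NEUROD1 was 13.03, 14.41 and 14.00 without dox and 4.45, 4.33 and 5.38 with it, a difference of -9.10 ± 0.76 (SE), adjusted p = 1.93e-08. The groups stood far apart, and with dox NEUROD1 was within the range of untreated H69 and COR-L88, 3.32 to 5.75. NEUROD4 was 1.81, 3.17 and 3.03 without and 0.032, 0.17 and 0.12 with dox (-2.57 ± 0.29 (SE), adjusted p = 1.15e-06). INSM1 was 3.30, 3.54 and 3.86 without and 0.23, 0.32 and 0.63 with dox (-3.18 ± 0.36 (SE), adjusted p = 9.39e-07). POU3F2 was 3.21, 4.25 and 4.51 without and 0.54, 0.44 and 1.25 with dox (-3.25 ± 0.38 (SE), adjusted p = 1.65e-06). All 4 were lower in every dox library than in any library without dox, and NEUROD4 and INSM1 ended near 0. PROX1 was low and overlapped (0.51, 0.31 and 0.41 against 0.26, 0.14 and 0.33).

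Of the 5 members tested in H82, 4 fell, against 12.4% of all genes tested that were called lower, and their median difference was -3.18 against -0.0026 over all genes. POU2F3, NKX2-1, FOXA2 and ISL1 were too low in H82 to be tested. HES1 was 1.42, 1.31 and 1.14 without and 6.16, 4.56 and 5.69 with dox, and the summed level of the 7 neuroendocrine markers was 11.83 to 12.25 without and 9.23 to 10.35 with dox, and 4 of the 6 tested were called lower (median difference -2.59). The vector alone called no member against parental cells with limma (0 of 5, 1 of 5 at an unadjusted p under 0.05, which was PROX1, against 6.41% of all genes), while NOTCH1 was already 1.45, 0.88 and 1.15 without dox against 0.041, 0.0073 and 0.0062 in parental cells.

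In H82 with REST KO, NEUROD1, NEUROD4 and POU3F2 fell with dox, and INSM1 was low before any dox was given. In REST KO cells NEUROD1 was 14.19, 14.22 and 13.62 without and 5.12, 5.69 and 7.25 with dox (-7.99 ± 0.76 (SE), adjusted p = 7.56e-08). NEUROD4 was 3.63, 3.61 and 3.71 without and 0.79, 0.81 and 1.41 with dox (-2.64 ± 0.29 (SE), adjusted p = 6.22e-07), and POU3F2 was 3.62, 3.66 and 3.91 and 0.77, 0.92 and 2.08 (-2.47 ± 0.38 (SE), adjusted p = 3.18e-05). INSM1 was already down to 1.31, 1.18 and 1.82 without dox, -2.13 ± 0.36 (SE), adjusted p = 7.70e-04 against intact N1ICD cells, and was 0.29, 0.67 and 1.48 with dox. Its dox response differed from that of intact cells by 2.55 ± 0.51 (SE), adjusted p = 0.00169, and with dox the INSM1 values of both overlapped.

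In REST KO cells 3 of 5 members fell with dox, against 13.7% of all genes that were called lower, with a median of -2.47 against -0.0091 over all genes. Without dox 1 of 5 (INSM1) differed from intact cells (6.24% of all genes). With dox limma called no member between REST KO and intact cells (0 of 5, 2 of 5 at an unadjusted p under 0.05, against 17.6% of all genes), and NEUROD4 was close to the size threshold at 0.90 ± 0.29 (SE), adjusted p = 0.0223, which it passed without 1 REST KO library (1.01, adjusted p = 0.0292). NEUROD4 was also near it without dox (0.98 ± 0.29 (SE), adjusted p = 0.0322), and passed without the second or the third library of intact cells (1.23, adjusted p = 0.0179 and 1.16, adjusted p = 0.0272). The dox response differed in 1 of 5 members (INSM1), against 12.9% of all genes. With dox, NOTCH1 was 8.75, 9.15 and 10.74 in REST KO and 4.75, 4.26 and 5.56 in intact cells, so that the amount of N1ICD transcript and REST KO cannot be told apart. The summed neuroendocrine markers were 11.85 to 11.87 without and 11.56 to 12.01 with dox in REST KO cells, and 4 of the 6 markers tested were called lower with dox (median difference -1.22). The summed markers of other cells were 0.23 to 0.36 without and 8.28 to 8.82 with dox in REST KO cells, against 6.27 to 7.06 with dox in intact cells, and their part in these results was not tested.

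The H82 cells labelled STING KO had lower NEUROD4, INSM1 and POU3F2 without dox, and NEUROD1 fell with dox as in the other H82 cells. NEUROD1 was 12.28, 11.80 and 12.67 without and 2.41, 6.68 and 3.26 with dox (-8.13 ± 0.76 (SE), adjusted p = 1.22e-07), with 1 dox library well above the other 2. NEUROD4 was 1.06, 0.48 and 1.28 without dox, -1.73 ± 0.29 (SE), adjusted p = 2.61e-04 against intact cells, and 0.025, 0.21 and 0 with dox, a difference of -0.86 ± 0.29 (SE), adjusted p = 0.0277 that missed the size threshold. POU3F2 was 1.84, 1.30 and 2.01 without dox, -2.28 ± 0.38 (SE), adjusted p = 2.35e-04 against intact cells, and 0, 0.77 and 1.09 with dox. INSM1 was 2.51, 2.18 and 2.88 without and 0.069, 1.26 and 0.26 with dox (-2.00 ± 0.36 (SE), adjusted p = 2.41e-04). The cells labelled STING KO thus started lower in these 3 genes. NOTCH1 in them was 2.15, 1.77 and 1.89 without and 5.97, 7.41 and 7.48 with dox, higher than in intact cells in every library, and the summed neuroendocrine markers without dox were 9.66 to 10.04. The summed markers of other cells were 1.31 to 2.98 without and 7.30 to 7.32 with dox, and the part of NOTCH1 or of either marker list in the differences was not tested. NEUROD1 without dox was also below every intact library and was not called (-1.56 ± 0.76 (SE), adjusted p = 0.12), except in a model of these 2 groups alone (-1.56, adjusted p = 0.0462).

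Without dox, 3 of 5 members were lower in the cells labelled STING KO than in intact cells (7.72% of all genes were called lower), of which INSM1 was weakest (-1.04 ± 0.36 (SE), adjusted p = 0.0311) and lost its call without any of 4 single libraries, the second and the third of the intact and the first and second of the labelled cells (differences -1.06 to -0.87, adjusted p 0.065 to 0.12). INSM1 also lost that call with no filter on low values (-1.04, adjusted p = 0.0511), with a pseudocount of 0.1 (-1.18, adjusted p = 0.199), with quantile normalization (-0.98, adjusted p = 0.0325) and with median-centred libraries (-0.96, adjusted p = 0.0436), the last 2 by size. With dox 3 of 5 fell (8.07% of all genes were called lower, and the median was -1.09 against 0.014 over all genes). The fall of POU3F2 (-1.09 ± 0.38 (SE), adjusted p = 0.0319) lost its call without the first dox library (-0.78, adjusted p = 0.161) and without the first or the third library without dox (-1.03, adjusted p = 0.0844 and -0.95, adjusted p = 0.109), whereas that of NEUROD4 gained one without the second (-1.09, adjusted p = 0.0142). With dox limma called no member between these and intact cells (0 of 5, and 0 of 5 at an unadjusted p under 0.05, against 16.5% of all genes), and 1 of 5 without the second library labelled STING KO. The dox response differed in 2 of 5 members (7.12% of all genes), namely NEUROD4 (1.70 ± 0.42 (SE), adjusted p = 0.0156) and POU3F2 (2.15 ± 0.54 (SE), adjusted p = 0.0185), and POU3F2 lost that call without any of 4 single libraries (differences 1.89 to 2.00, adjusted p 0.0501 to 0.0549), the third without and second with dox of the intact and the second without and the third with dox of the labelled cells. With dox both genes overlapped between labelled and intact cells, so that these differences of responses reflect the lower level before dox. With a pseudocount of 0.1 neither was called (2.23, adjusted p = 0.06 for NEUROD4 and 2.03, adjusted p = 0.253 for POU3F2).

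In H524, NEUROD1, NEUROD4, INSM1, NKX2-1 and POU3F2 fell with dox in N1ICD cells, and none to 0. NEUROD1 was 13.49, 14.62 and 13.92 without and 10.38, 8.94 and 9.62 with dox (-4.36 ± 0.42 (SE), adjusted p = 2.56e-06). INSM1 was 6.48, 7.17 and 6.98 without and 4.84, 2.98 and 3.72 with dox (-3.03 ± 0.35 (SE), adjusted p = 1.33e-05). NEUROD4 was 3.06, 4.32 and 3.85 without and 1.81, 1.01 and 1.31 with dox (-2.36 ± 0.43 (SE), adjusted p = 7.50e-04). The dox groups were below the groups without dox in every library, and NEUROD1 with dox was above every library of untreated H69 and COR-L88. NKX2-1 was 5.89, 4.98 and 5.78 without and 3.39, 3.28 and 3.09 with dox (-2.30 ± 0.30 (SE), adjusted p = 4.25e-05). POU3F2 was 6.12, 6.31 and 6.97 without and 4.49, 4.39 and 4.08 with dox (-2.15 ± 0.20 (SE), adjusted p = 1.38e-06). Of the 8 members tested 5 fell (7.19% of all genes were called lower), and the median was -2.22 against -0.018 over all genes. The summed neuroendocrine markers were 11.79 to 13.02 without and 10.47 to 10.99 with dox.

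POU2F3, the tuft cell factor, stood out in H524 by its spread between libraries. It was listed at 0 in the 3 parental libraries and in the 3 REST libraries with dox, but was 4.58, 0.51 and 1.49 in N1ICD cells without dox and 4.98, 2.15 and 3.57 with dox. The groups overlapped and the difference was 1.37 ± 0.81 (SE), adjusted p = 0.223, which passed the test without the first library without dox (2.57, adjusted p = 0.00364). The cells without dox differed from parental cells by 2.20 ± 0.81 (SE), adjusted p = 0.0621, which passed without the second of them (3.04, adjusted p = 0.011). The 3 libraries without dox also differed in STING1 (0.45, 3.25 and 1.43) and REST (2.93, 2.66 and 4.20). Of the 8 members, 1 (INSM1, -1.11 ± 0.35 (SE), adjusted p = 0.0315) was called between them and parental cells, against 12.1% of all genes, and it lost the call without any of 4 single libraries, the first or the last of either group (differences -1.16 to -0.91, adjusted p 0.0574 to 0.108).

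With the REST vector in H524, POU3F2 fell and NEUROD1 was not called. POU3F2 was 6.64, 6.48 and 6.47 without and 5.39, 5.25 and 5.33 with dox (-1.21 ± 0.20 (SE), adjusted p = 0.00553). NEUROD1 was 14.77, 13.82 and 13.86 without and 15.25, 14.57 and 14.66 with dox, with a 95% interval of the difference of -0.24 to 1.59. INSM1 (8.50, 8.56 and 8.13 against 7.74, 7.68 and 7.77) and NKX2-1 (6.62, 6.27 and 5.95 against 5.69, 5.16 and 5.11) were lower in every dox library and did not pass the test (adjusted p = 0.348 and adjusted p = 0.107). NEUROD4 was 4.57, 2.71 and 3.86 with dox against 4.65, 4.49 and 4.54 without (adjusted p = 0.329), and its second dox library, which had the highest REST level, was the lowest. Of the 8 members 1 was called (1.87% of all genes), and none between the REST vector cells without dox and parental cells with limma (0 of 8, and 0 of 8 at an unadjusted p under 0.05, against 0.264% of all genes).

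With dox, N1ICD and REST cells of H524 differed in 6 of 8 members (23.8% of all genes). NEUROD1 was lower with N1ICD (difference -5.18 ± 0.42 (SE), adjusted p = 4.32e-07), and INSM1, NEUROD4 and NKX2-1 were lower too, with differences of -3.89, -2.33 and -2.07. ISL1 was lower (difference -1.17 ± 0.23 (SE), adjusted p = 0.00113), a call lost without the second REST library (-0.95, adjusted p = 0.006), and POU2F3 was higher by 3.57 ± 0.81 (SE), adjusted p = 0.00299. ISL1 was already near 0 in N1ICD cells without dox (0.031, 0.056 and 0), against 0.76, 0.38 and 1.41 in parental cells. POU2F3 also stood apart before dox, at 4.58, 0.51 and 1.49 in N1ICD cells against 0.18, 0 and 0 in REST vector cells. POU3F2 had group means of 4.32 and 5.32 (adjusted p = 0.00105), just short of the size threshold, and passed it without the first or second N1ICD library or the second REST library (-1.09, adjusted p = 0.00229, -1.04, adjusted p = 0.00396 and -1.03, adjusted p = 0.0033). The dox responses themselves differed in 3 of 8 members (15.6% of all genes), and in 5 of 8 without the first N1ICD library without dox, where NEUROD4, POU2F3 and POU3F2 were gained and NKX2-1 was lost. They were NEUROD1 (-5.04 ± 0.60 (SE), adjusted p = 4.22e-05), INSM1 (-2.37 ± 0.49 (SE), adjusted p = 0.00383) and NKX2-1 (-1.34 ± 0.42 (SE), adjusted p = 0.0405), and NKX2-1 lost its call without any of 10 of the 12 libraries (differences -1.44 to -1.15, adjusted p 0.0527 to 0.103). NEUROD4 (-1.52 ± 0.61 (SE), adjusted p = 0.101) was called without the second REST library with dox as well (-2.02, adjusted p = 0.0183).

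In H69, 8 of 8 tested members fell with N1ICD, and NEUROD1, NEUROD4, INSM1 and FOXA2 ended at or near 0 in every library. NEUROD1 was 10.61, 8.88 and 8.69 without dox and listed at 0 in the 3 dox libraries (adjusted p = 5.76e-07). NEUROD4 was 5.64, 5.72 and 5.98 without dox and likewise listed at 0 with dox (adjusted p = 2.61e-10). INSM1 was 8.40, 8.26 and 8.41 without and 0, 0 and 0.038 with dox (-8.34 ± 0.079 (SE), adjusted p = 1.70e-11). These genes, of which NEUROD1 and INSM1 were the highest of the list without dox, were thus listed at 0 in every dox library except for INSM1 in the third. FOXA2 was 5.03, 4.60 and 4.90 without and 0.091, 0.023 and 0 with dox (-4.81 ± 0.12 (SE), adjusted p = 2.93e-09). PROX1 was 2.69, 2.36 and 2.67 without and 0.12, 0.15 and 0.094 with dox (-2.45 ± 0.097 (SE), adjusted p = 4.23e-08). The other 3 tested factors fell and stayed above 1 in every library. POU3F2 was 6.69, 5.76 and 6.44 without and 2.05, 2.27 and 2.36 with dox (-4.07 ± 0.21 (SE), adjusted p = 2.27e-07). ISL1 was 4.90, 5.17 and 5.42 without and 1.47, 1.37 and 1.18 with dox (-3.82 ± 0.13 (SE), adjusted p = 1.55e-08). NKX2-1 was 3.24, 3.84 and 3.69 without and 1.31, 1.16 and 1.23 with dox (-2.36 ± 0.14 (SE), adjusted p = 5.37e-07).

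The 8 that fell stand against 20.4% of all genes that were called lower, and their median was -4.44 against 0.083 over all genes. The summed neuroendocrine markers were 12.61 to 12.65 without and 7.29 to 7.39 with dox, while HES1 was 3.62, 2.93 and 3.27 without and 3.76, 3.82 and 3.79 with dox and REST was 1.34, 0 and 0.12 and 5.54, 5.46 and 5.52.

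The H69 vector cells differed from parental H69 before dox in 1 of 8 members (5.27% of all genes), which was NEUROD1. It was 5.03, 4.77 and 3.32 in parental cells and 10.61, 8.88 and 8.69 in vector cells (5.02 ± 0.56 (SE), adjusted p = 3.85e-04), while NOTCH1 was 0.58, 0.62 and 0.58 and 0.38, 0.39 and 0.39. The groups did not overlap. The first vector library, highest in NEUROD1, also had the highest REST of the 3, and without it NEUROD1 was still 4.41, adjusted p = 2.61e-04. The other members of these vector cells lay within 0.5 of parental H69 on average.

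**Figure D2:**
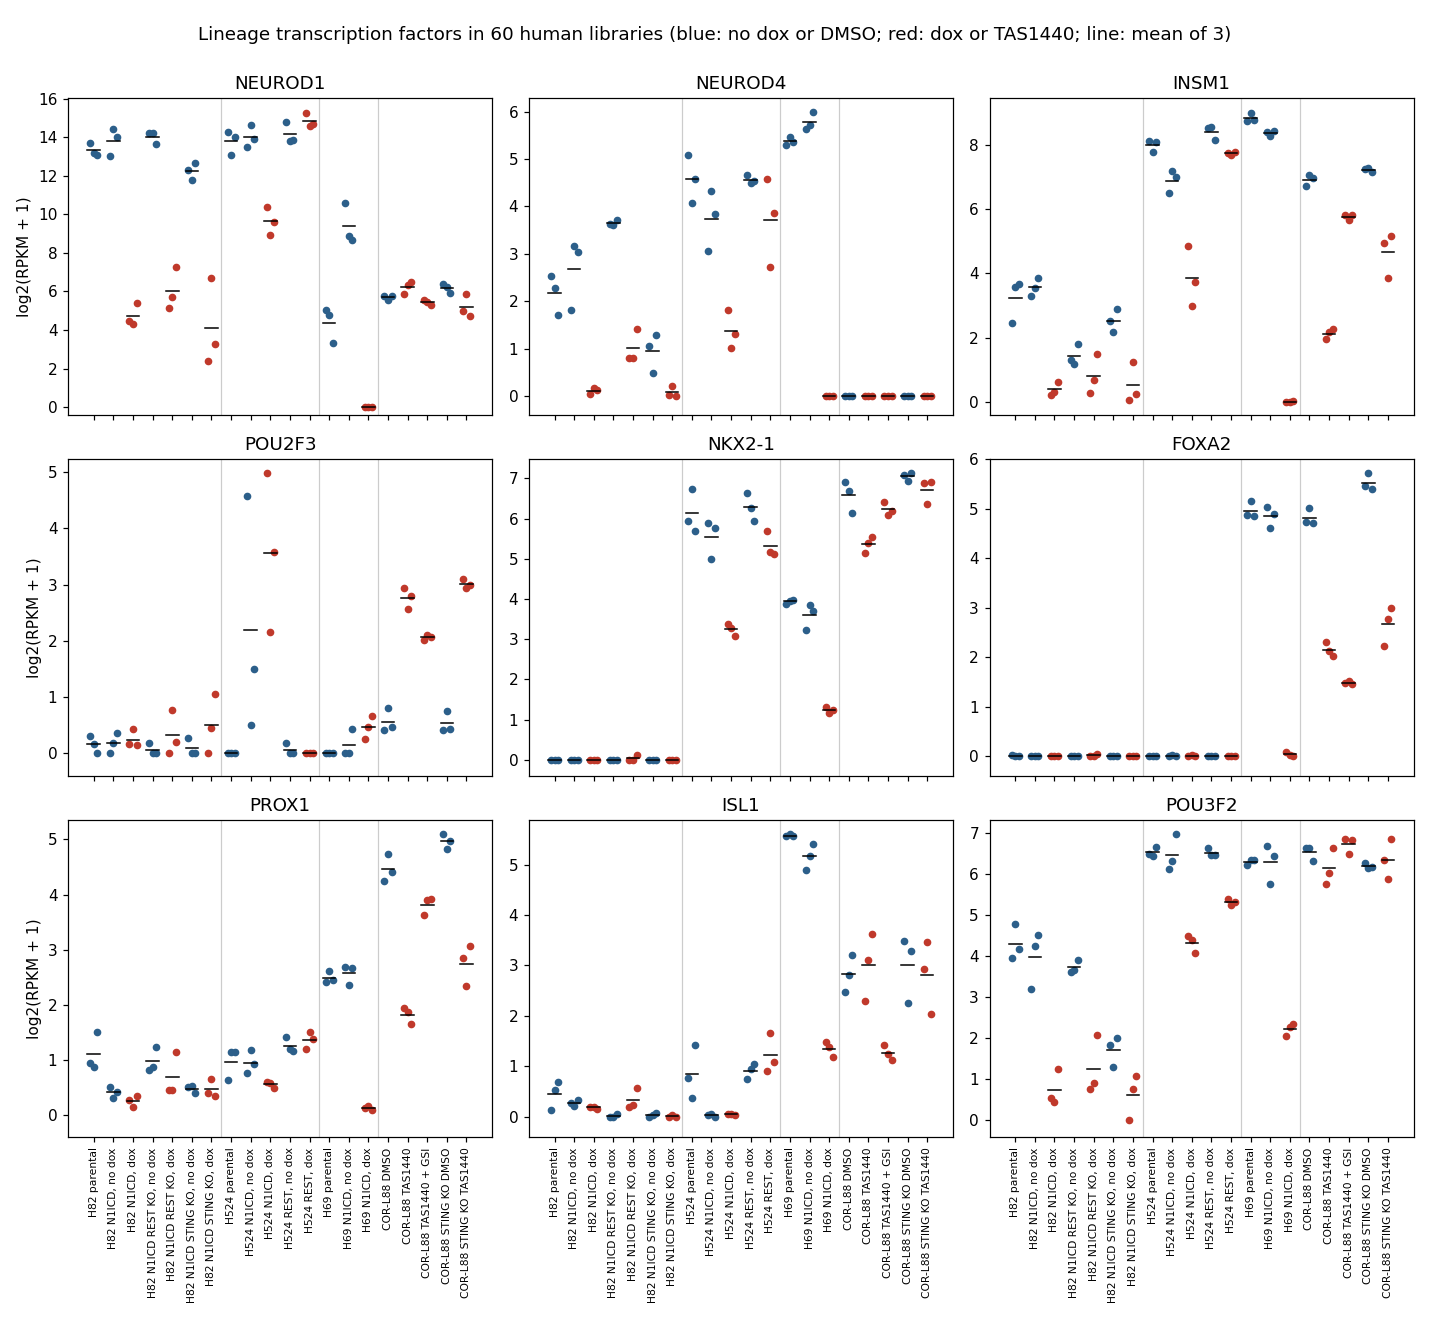
Values of the 9 lineage factors in each of the 60 human libraries as log2(RPKM + 1), with the 20 groups on the horizontal axis, 1 point per library and a line at the mean of 3. NEUROD1 drops in the N1ICD dox groups of H82, H524 and H69 and stays high with REST in H524, and POU2F3 varies widely in the H524 N1ICD groups and is higher in every COR-L88 group with TAS1440.

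Members differed between lines in the size of their dox response. NEUROD1 fell less in H524 than in H82, by a difference of responses of 4.73 ± 0.85 (SE), adjusted p = 1.95e-05. The NEUROD1 responses of H69 and H82 were not told apart by the test (95% interval -2.01 to 1.42). In H69 with dox NEUROD1 was listed at 0 in every library, so that its fall there is cut off by the floor. That fall also started from vector cells with a mean of 9.39, against 4.37 in parental H69, so that a similar response is not read from the interval. NKX2-1 fell in H524 and H69 and was listed at 0 in the N1ICD cells of H82 without and with dox, and the difference from H82 (-2.30 ± 0.28 (SE), adjusted p = 1.05e-08 for H524) follows from that. Likewise, 3 factors that fell in H69 were low in the N1ICD cells of H82 and H524 before dox, FOXA2 at 0 to 0.016, ISL1 at 0 to 0.34 and PROX1 at 0.31 to 1.17, so that they had little room to fall there. INSM1 fell by more in H69 than in H82 (-5.17 ± 0.45 (SE), adjusted p = 2.39e-13) and than in H524 (-5.31 ± 0.45 (SE), adjusted p = 1.42e-13), and it was also the highest in H69 before dox. POU3F2 fell less in H524 than in H82 by 1.10 ± 0.43 (SE), adjusted p = 0.0436, a call lost without any of 8 of the 12 libraries (differences 0.84 to 1.06, adjusted p 0.0772 to 0.162), with no filter on low values (1.10, adjusted p = 0.052), with quantile normalization (1.02, adjusted p = 0.0604) and with only the compared groups (1.10, adjusted p = 0.17). Between H524 and H82, 3 of 9 members differed (19.7% of all genes), between H69 and H82 6 of 9 (43.1%), and between H69 and H524 7 of 9 (36.8%). The counts for H69 include FOXA2, PROX1 and ISL1, and against H82 also NKX2-1, whose differences follow from the level before dox, and nothing about the response is read from them. NEUROD4 and INSM1 with dox had means of 0.10 and 0.39 in H82 and of 0 and 0.013 in H69. With both lines at or near 0, their differences between H69 and H82 reflect the level before dox as well. Against H524, the falls of NEUROD1, NEUROD4 and INSM1 in H69 are cut off at or near 0. The 3 contrasts between lines share the dox response of a line pairwise and are not independent.

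**Figure D3:**
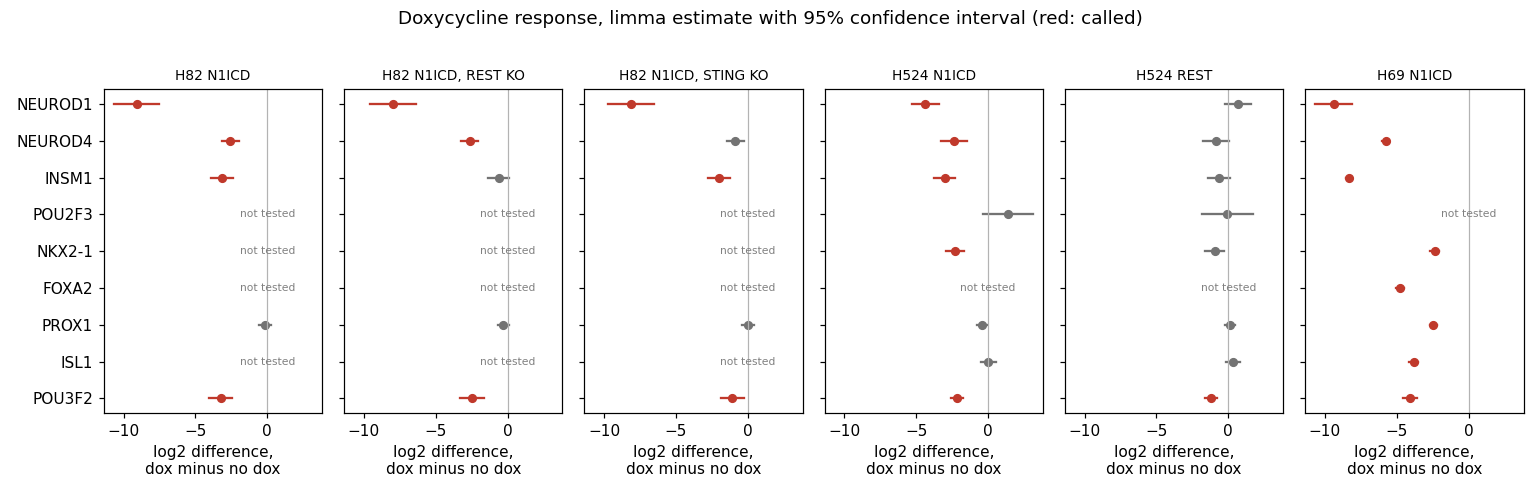
Difference between dox and no dox for each member in log2(RPKM + 1), with the 95% confidence interval of limma and 1 panel per vector line. Red points were called, a member below the filter is marked as not tested, and NEUROD1 and NEUROD4 in H69, which are listed at 0 in every dox library, have a difference that depends on the pseudocount. NEUROD1 lies far below 0 in the 5 N1ICD panels and not in the REST panel, and all 8 members tested in H69 lie below 0.

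In COR-L88 with the LSD1 inhibitor, INSM1, FOXA2, PROX1 and NKX2-1 fell and POU2F3 rose. INSM1 was 6.71, 7.06 and 6.97 with DMSO, 1.95, 2.16 and 2.26 with TAS1440 and 5.80, 5.66 and 5.80 when GSI was added. It fell with TAS1440 alone (-4.79 ± 0.25 (SE), adjusted p = 5.86e-09) and was lower there than with TAS1440 plus GSI (-3.63 ± 0.25 (SE), adjusted p = 5.84e-07). With GSI it was still below DMSO (-1.16 ± 0.25 (SE), adjusted p = 0.00333). PROX1 had the same order of groups, at 4.25, 4.73 and 4.41 with DMSO, 1.93, 1.87 and 1.65 with TAS1440 (-2.64 ± 0.18 (SE), adjusted p = 5.75e-08) and 3.64, 3.90 and 3.91 with GSI, and the difference of TAS1440 from TAS1440 plus GSI was -2.00 ± 0.18 (SE), adjusted p = 3.18e-06.

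FOXA2 did not follow that order. It was 4.73, 5.02 and 4.72 with DMSO, 2.32, 2.11 and 2.03 with TAS1440 (-2.67 ± 0.17 (SE), adjusted p = 3.61e-08) and lower still, at 1.48, 1.52 and 1.45, with GSI. The difference between TAS1440 and TAS1440 plus GSI was 0.67 ± 0.17 (SE), adjusted p = 0.00535, without overlap and under the size threshold. POU2F3 rose with TAS1440 from 0.41, 0.80 and 0.46 to 2.94, 2.56 and 2.81 (2.21 ± 0.13 (SE), adjusted p = 2.44e-08), and with GSI it still stood at 2.02, 2.11 and 2.08 (1.51 ± 0.13 (SE), adjusted p = 2.24e-06 against DMSO). FOXA2 and POU2F3 were thus called against DMSO with and without GSI, as was INSM1.

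NKX2-1 was 6.91, 6.67 and 6.13 with DMSO and 5.14, 5.39 and 5.54 with TAS1440 (-1.21 ± 0.19 (SE), adjusted p = 1.28e-04), and 6.41, 6.10 and 6.19 with GSI. ISL1 was 2.47, 2.80 and 3.20 with DMSO, 2.29, 3.11 and 3.61 with TAS1440 and lower, at 1.42, 1.25 and 1.11, with GSI (-1.56 ± 0.40 (SE), adjusted p = 0.0114), a call lost without the third DMSO library (-1.38, adjusted p = 0.0511). NEUROD1 was 5.56 to 5.75 with DMSO, 5.87 to 6.51 with TAS1440 and 5.30 to 5.56 with GSI, and POU3F2 was 5.77 to 6.85 over the 3 groups, and neither was called in any comparison of them. NEUROD4 was listed at 0 in all 15 libraries.

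Of the 8 members tested, 5 were called with TAS1440 against DMSO (22.8% of all genes), 4 with TAS1440 plus GSI against DMSO (9.02%) and 3 between both (14.7%), and these comparisons share groups. The median difference with TAS1440 was -0.80 against 0.008 over all genes. HES1 was 4.87, 4.44 and 4.63 with DMSO, 4.93, 4.18 and 4.47 with TAS1440 and 1.97, 2.30 and 2.23 with GSI, and NOTCH1 was 1.99, 2.79 and 2.26 with TAS1440 and 6.73, 6.71 and 6.75 with GSI. The summed neuroendocrine markers were 11.45 to 11.72 with DMSO, 9.35 to 9.58 with TAS1440 and 9.95 to 10.04 with GSI.

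INSM1 fell less with TAS1440 in STING KO than in intact COR-L88. In STING KO cells INSM1 was 7.23, 7.28 and 7.16 with DMSO and 4.94, 3.86 and 5.15 with TAS1440 (-2.57 ± 0.25 (SE), adjusted p = 2.19e-06), a response that differed from that of intact cells by 2.22 ± 0.35 (SE), adjusted p = 0.00342. NEUROD1 went from 6.38, 6.25 and 5.90 to 4.99, 5.88 and 4.72, just under the size threshold (-0.98 ± 0.25 (SE), adjusted p = 0.00605), and its response differed by -1.53 ± 0.35 (SE), adjusted p = 0.0204, a call lost without the second DMSO library of intact cells (-1.47, adjusted p = 0.0534) or the first STING KO library with TAS1440 (-1.42, adjusted p = 0.0586). Its difference was called without the third STING KO library with DMSO (-1.12, adjusted p = 0.0071) or the second with TAS1440 (-1.32, adjusted p = 1.54e-04). NKX2-1 was 7.09, 6.94 and 7.12 and 6.89, 6.37 and 6.90, with a difference of responses of 0.89 ± 0.27 (SE), adjusted p = 0.0643 that passed without the third DMSO library of intact cells (1.10, adjusted p = 0.023) or the second STING KO library with TAS1440 (1.06, adjusted p = 0.02).

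FOXA2 and PROX1 fell and POU2F3 rose in STING KO cells as well. FOXA2 was 5.46, 5.72 and 5.40 with DMSO and 2.22, 2.77 and 2.99 with TAS1440 (-2.86 ± 0.17 (SE), adjusted p = 2.37e-08). PROX1 was 5.10, 4.82 and 4.98 and 2.85, 2.34 and 3.06 (-2.22 ± 0.18 (SE), adjusted p = 4.01e-07). POU2F3 was 0.41, 0.75 and 0.44 and 3.10, 2.94 and 3.00 (2.48 ± 0.13 (SE), adjusted p = 1.06e-08). All 3 were apart from DMSO in every library. With TAS1440, 4 of 8 members were called in STING KO cells (16% of all genes), and the response differed from intact cells in 2 of 8 (4.23% of all genes). Between STING KO and intact cells 3 of 8 differed with TAS1440 (6.53% of all genes), namely INSM1 (2.53 ± 0.25 (SE), adjusted p = 2.18e-05), NKX2-1 (1.36 ± 0.19 (SE), adjusted p = 3.58e-04) and NEUROD1 (-1.04 ± 0.25 (SE), adjusted p = 0.00846, which lost its size without any of 4 single libraries, differences -0.99 to -0.80, adjusted p 0.0287 to 0.0426, the second and the third of the intact and the first and the third of the STING KO cells). PROX1 was near the threshold (0.93 ± 0.18 (SE), adjusted p = 0.00219) and passed it without the second STING KO library (1.13, adjusted p = 2.58e-04). With DMSO limma called no member (0 of 8, 3 of 8 at an unadjusted p under 0.05, which were FOXA2, NKX2-1 and PROX1, all higher in STING KO cells, against 1.47% of all genes). HES1 was 3.26, 2.98 and 3.99 in STING KO cells with TAS1440, against 4.93, 4.18 and 4.47 in intact cells, and NOTCH1 was 4.58, 2.82 and 4.93 against 1.99, 2.79 and 2.26, and their part in the INSM1 difference was not tested.

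In mouse KP1 cells, Insm1, Nkx2-1, Foxa2, Prox1 and Isl1 fell with TAS1440, and none of them was called against DMSO when GSI was present. Insm1 was 7.19, 7.25 and 7.20 with DMSO, 0.17, 2.14 and 4.73 with TAS1440 and 8.13, 8.13 and 7.48 with GSI (-4.87 ± 0.89 (SE), adjusted p = 0.00236 for TAS1440 against DMSO). The 3 TAS1440 libraries spread widely, and all lay below every DMSO library. Nkx2-1 was 6.46, 6.41 and 6.38 with DMSO, 2.41, 2.28 and 3.39 with TAS1440 (-3.73 ± 0.29 (SE), adjusted p = 1.36e-05) and 7.06, 7.00 and 6.59 with GSI. Foxa2 was 5.59, 5.75 and 5.54, 0.45, 1.95 and 1.98 (-4.16 ± 0.38 (SE), adjusted p = 3.40e-05) and 4.47, 4.91 and 5.02 in the same order of groups. Prox1 was 3.32, 3.31 and 3.58, 0.0017, 0.17 and 0.81 (-3.07 ± 0.22 (SE), adjusted p = 8.86e-06) and 3.46, 3.47 and 3.18. The third TAS1440 library was the highest of its group for all 5 genes. Its summed neuroendocrine markers were the highest of the group too, in which they ranged over 2.98 to 4.99, against 7.48 to 8.04 with DMSO and 7.24 to 7.81 with GSI. Of the markers of other cells, Col1a1, Ptprc and Pecam1 of endothelial cells were in the mouse table, and their summed level was 0.0049 to 0.02 with DMSO, 0.26 to 2.73 with TAS1440 and 0.017 to 0.051 with GSI, and the part of such markers in the TAS1440 results was not tested.

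Isl1 was 1.31, 1.28 and 1.67 with DMSO, 0, 0.14 and 0.83 with TAS1440 and 3.09, 2.40 and 2.20 with GSI. Its fall with TAS1440 (-1.10 ± 0.28 (SE), adjusted p = 0.0121) lost the call without the third DMSO library (-0.97, adjusted p = 0.0475) or the first TAS1440 library (-0.94, adjusted p = 0.0452), and with GSI it was above every DMSO library (1.14 ± 0.28 (SE), adjusted p = 0.0851). Of the 5 members tested, 5 fell with TAS1440 against DMSO (9.7% of all genes were called lower, and the median was -3.73 against 0.021 over all genes) and 5 were lower with TAS1440 than with TAS1440 plus GSI (8% of all genes). With GSI limma called no member against DMSO (0 of 5, 1 of 5 at an unadjusted p under 0.05, which was Isl1, against 1.21% of all genes), although Foxa2 was below every DMSO library (-0.83 ± 0.38 (SE), adjusted p = 0.441). Neurod1 was low in KP1, at 0 to 0.86 over the 9 libraries, and was not tested. Neurod4 did not pass the filter either, and was 1.07, 0.99 and 0.90 with DMSO, 0, 0.0075 and 0.021 with TAS1440 and 0.67, 0.60 and 0.71 with GSI. Pou2f3 stayed at or near 0, with values of 0 to 0.0029. Hes1 was 0.87, 0.93 and 0.55 with DMSO, 4.64, 5.42 and 5.33 with TAS1440 and 0.95, 0.86 and 1.31 with GSI. The human and mouse tables were normalized separately and no test was made between them.

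**Figure D4:**
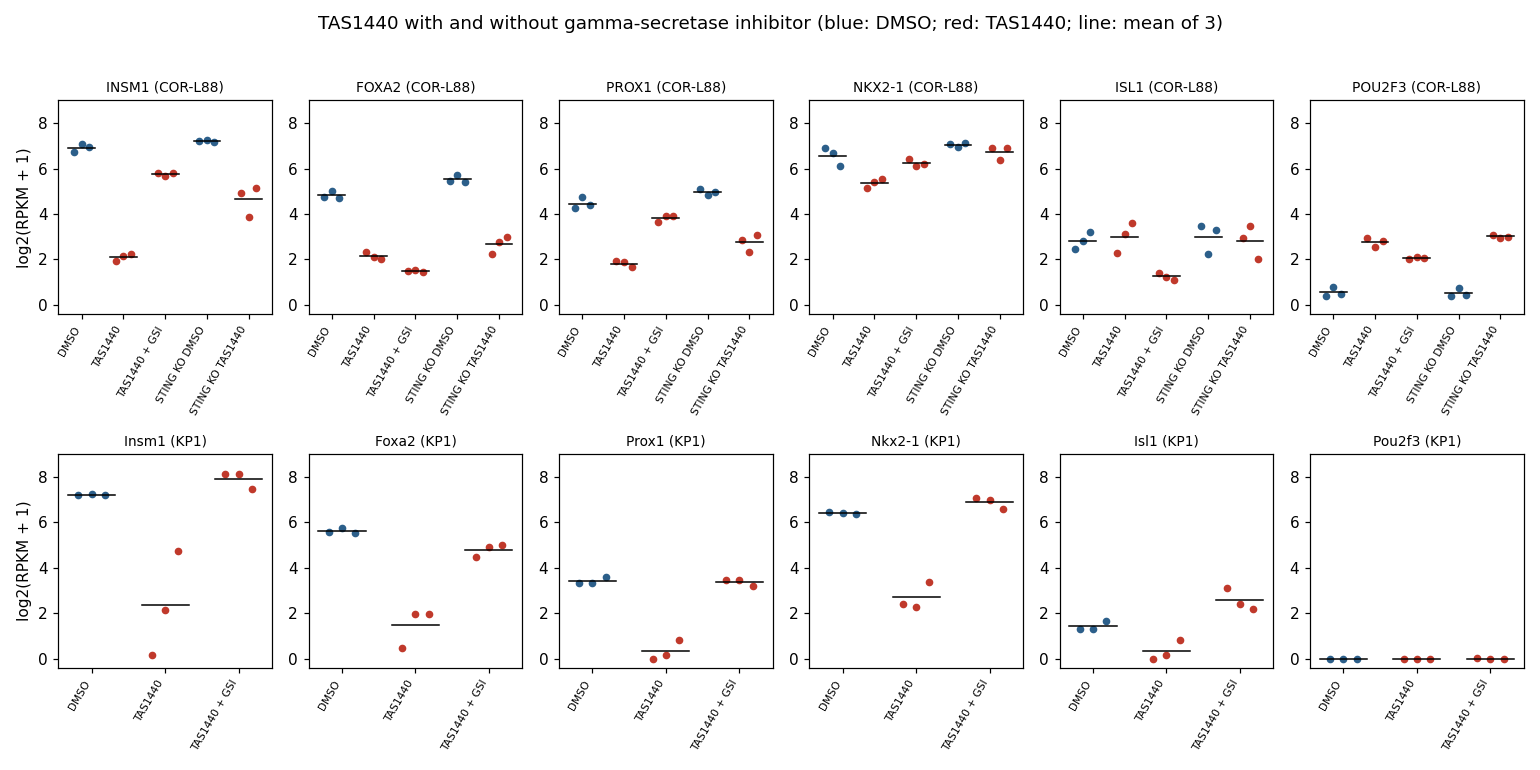
INSM1, FOXA2, PROX1, NKX2-1, ISL1 and POU2F3 in COR-L88 (top) and their counterparts in KP1 (bottom) as log2(RPKM + 1), with 1 point per library and a line at the mean of 3 for each treatment. FOXA2 in COR-L88 lies at 4.72 to 5.02 with DMSO and at 1.45 to 1.52 with TAS1440 plus GSI. Foxa2 in KP1 lies at 5.54 to 5.75 with DMSO and at 4.47 to 5.02 with TAS1440 plus GSI. Levels are not compared between COR-L88 and KP1. POU2F3 is above 2 in every COR-L88 library with TAS1440.

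Over the 11 comparisons of dox against no dox or of TAS1440, with or without GSI, against DMSO, INSM1 was tested in 11 and fell in 8, and POU3F2 was tested in 9 and fell in 6. NEUROD1 fell in 5 of 9, FOXA2 in 5 of 6, NEUROD4 in 4 of 6, NKX2-1 in 4 of 8, PROX1 in 4 of 11 and ISL1 in 3 of 8. POU2F3 was the only member that rose in any of them, in 3 of 5, all in COR-L88. Several of these comparisons share control libraries.

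Of 32 other transcription factors of neural, endocrine and endodermal lineages, 30 were tested in at least 1 of the 11 comparisons. Of these 30, 28 (93.3%) were called in at least 1 and 16 (53.3%) in at least 3, against 61.6% and 25.6% of all 16793 genes tested in any of them, and nothing particular to the list is read from that. MYT1, a zinc finger factor of neural progenitors, fell in 7, with differences of -3.31 in H82, -1.82 in H524, -2.33 in H69, -1.93 with TAS1440 in COR-L88 and -1.72 in KP1. ST18, of the same family, fell in 7, with differences from DMSO in COR-L88 of -5.95 with TAS1440 and -5.16 with TAS1440 plus GSI. MYT1L, the other member of that family, fell in 6. NEUROG1, a proneural basic helix-loop-helix factor, fell in H82 (-5.42) and H524 (-2.76), and FOXA1, the paralog of FOXA2, in H82 (-2.90), H69 (-3.92) and KP1 (-1.61). NHLH1, SOX11, INSM2, ISL2, PAX5 and SOX2 fell wherever they were called, in 3 or 4 comparisons each. SOX1 and PAX6 rose wherever they were called, and POU3F3, LHX2 and SOX4 were called in both directions. SOX1, a factor of neural progenitors, rose by 1.59 in H82 and 2.36 in H524, and by 6.37 in H82 with REST KO.

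The genes whose mean levels over the 20 human groups ran closest to each member are given as a description, with Pearson's r among 10451 varying genes. The 20 points share 4 lines and their control groups. NEUROD1 was closest to CHRNA1 (0.92), KIAA1467 (0.91) and PRPH2 (0.90), and NEUROD4 to BRSK2 (0.96), MIR7-3HG (0.95) and CLDN11 (0.95). INSM1 was closest to E2F1 (0.95), VWA5B2 (0.94) and CCDC74A (0.93), and POU2F3 to SLC23A3 (0.92), HSBP1L1 (0.91) and PARP9 (0.90). NKX2-1 was closest to TCL6 (0.98), MIR4458HG (0.97) and FAM201A (0.96), and FOXA2 to MS4A8 (0.98), SLC35D3 (0.96) and SOX2-OT (0.95). PROX1 was closest to EPHB1 (0.97), USP41 (0.96) and TFF3 (0.95), ISL1 to FAT3 (0.96), SP8 (0.96) and TOX (0.96) and POU3F2 to JAKMIP1 (0.92), TRAPPC9 (0.91) and SDHA (0.91).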

How the data were processed

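Bulk RNA-Seq was measured in 69 libraries, 3 per group, grouped by their titles. Per the labels and the study's methods, polyA RNA was prepared with a stranded kit, and the submitters' processing notes name cutadapt, STAR, RSEM, edgeR, hg19 and mm10 without versions. The authors deposited log2 values after trimmed mean of M values scaling, in 1 table per species. They were taken as log2(RPKM + 1) because their floor is 0. Counts were not used here.

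The authors tested with limma voom. As only log2 values were at hand, groups were compared with limma 3.58.1 (R 4.3.3) with a variance trend, all groups of a line in 1 model, and all 60 human libraries between lines, two-sided and adjusted over all genes tested. The code was tested on simulated data. Python 3.11.15 with pandas 2.3.3 and matplotlib 3.10.9 made tables and figures. Gene positions came from GENCODE, and start regions from RefSeq.

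Members, lists and tests were chosen with earlier results of these data known. All members were named. The 3 genes nearest to each were named among genes with a group mean of at least 2 and an SD of at least 0.5 over group means, and other factors where called in at least 3 comparisons. A further factor is not reported here. The alternatives were to drop the filter, to add 0.1 in place of 1, to normalize by quantiles or by medians, to fit the compared groups alone, to drop the variance trend and to leave out each library.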

Additional observations from a re-analysis of the deposited data

Results flagged for a closer look

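Tests of the difference between 2 responses picked out 24 member results, which are given here as differences of responses on the log2(RPKM + 1) scale with limma's adjusted p. In H82, the dox response in REST KO minus intact cells was 2.55 for INSM1 (adjusted p = 0.00169), and that in cells labelled STING KO minus intact cells was 1.70 for NEUROD4 (adjusted p = 0.0156) and 2.15 for POU3F2 (adjusted p = 0.0185). Before dox, INSM1 had means of 3.57 in intact and 1.43 in REST KO cells. NEUROD4 and POU3F2 had means of 2.67 and 3.99 in intact cells and 0.94 and 1.71 in cells labelled STING KO. With dox the compared cells overlapped in each of these genes, so that these differences reflect the level before dox. With a pseudocount of 0.1 neither NEUROD4 (2.23, adjusted p = 0.06) nor POU3F2 (2.03, adjusted p = 0.253) was called.

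In H524, the response to N1ICD minus that to REST was -5.04 for NEUROD1 (adjusted p = 4.22e-05), -2.37 for INSM1 (adjusted p = 0.00383) and -1.34 for NKX2-1 (adjusted p = 0.0405). In COR-L88, the TAS1440 response in STING KO minus intact cells was -1.53 for NEUROD1 (adjusted p = 0.0204) and 2.22 for INSM1 (adjusted p = 0.00342).

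Between lines, the N1ICD response of H524 minus that of H82 was 4.73 for NEUROD1 (adjusted p = 1.95e-05), -2.30 for NKX2-1 (adjusted p = 1.05e-08) and 1.10 for POU3F2 (adjusted p = 0.0436). That of H69 minus H82 was -3.21 for NEUROD4 (adjusted p = 1.04e-08), -5.17 for INSM1 (adjusted p = 2.39e-13), -2.36 for NKX2-1 (adjusted p = 1.37e-09), -4.81 for FOXA2 (adjusted p = 1.38e-28), -2.29 for PROX1 (adjusted p = 5.60e-11) and -3.73 for ISL1 (adjusted p = 1.35e-11). That of H69 minus H524 was -5.03 for NEUROD1 (adjusted p = 2.82e-06), -3.42 for NEUROD4 (adjusted p = 3.48e-09), -5.31 for INSM1 (adjusted p = 1.42e-13), -4.81 for FOXA2 (adjusted p = 1.71e-28), -2.05 for PROX1 (adjusted p = 1.30e-09), -3.84 for ISL1 (adjusted p = 8.04e-12) and -1.92 for POU3F2 (adjusted p = 1.82e-04). NEUROD1 and NEUROD4 were listed at 0 in every H69 library with dox, and NKX2-1 in every H82 library with and without dox of the N1ICD cells. Before dox, FOXA2, ISL1 and PROX1 in the N1ICD cells of H82 and H524 were at 0 to 0.016, 0 to 0.34 and 0.31 to 1.17. INSM1 with dox was at 0 to 0.038 in H69 and 0.23 to 0.63 in the N1ICD cells of H82. The differences between lines in all these genes depend on the pseudocount and on the level before dox.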

How the results depend on the processing

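Of 486 recomputed counts of called members, 462 stayed within 1.5 times the reported count. Of 2196 recomputed differences, 2084 kept their direction and their side of the threshold, 61 lost it, 49 gained it and 2 reversed. Only differences near or above the size threshold, or with an adjusted p below 0.05, in the main analysis entered these numbers. Smaller differences that gained a call or reversed are not among them, whereas the counts of called members include all members. With a pseudocount of 0.1, 2 members were called between REST KO and intact H82 with dox and 2 without dox, 1 between H82 vector and parental cells, 0 in the difference of responses of H82 labelled STING KO, and 3 between H524 N1ICD and parental cells. The last count was 0 with quantile normalization and 0 with only the compared groups. The cause was not tested.

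Leaving out each library gave 0 to 1 called members between REST KO and intact H82 with dox and 1 to 2 without dox, 0 to 1 between H82 labelled STING KO and intact with dox, 1 to 2 in the difference of responses of H82 labelled STING KO, 0 to 2 between H524 N1ICD and parental cells, 2 to 5 in the H524 difference of responses, and 1 to 3 in that of COR-L88. NEUROD1 in the difference of responses of H82 labelled STING KO was 0.96 and ranged from -0.32 to 1.81, with -0.32 without the second dox library labelled STING KO, and POU3F2 in H69 minus H82 was -0.82 and reversed to 0.0071 with a pseudocount of 0.1. No paired analysis was possible because the numbers in the titles run on through all libraries and are shared by no 2 compared groups. Depth is unknown.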
